A study of Mus musculus with 6 samples.

Results

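The genes described here are the mouse histone genes measured in liver RNA from which ribosomal RNA had been depleted. They are all protein-coding rows of the deposited liver table whose symbol begins with Hist1h, Hist2h, Hist3h, Hist4h, H2af, H3f or H1f, 49 of 21297 genes. Of these, 39 are replication-dependent histone genes, whose symbols begin with Hist, and 10 are variant histone genes. The choice used names and annotation only and no measured value. By type of histone, 7 of the 49 genes encode H1 proteins, 14 H2A, 10 H2B, 6 H3 and 12 H4.

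The livers came from male C57BL/6J mice, 8 weeks old at the start, that were injected intraperitoneally with an antisense oligonucleotide (ASO) in weekly doses of 50 mg/kg over 6 weeks and killed 48 h after the last injection. One group received a control oligonucleotide (CON ASO, n = 3) and the other an oligonucleotide against Mmab (MMAB ASO, n = 3), the gene of the enzyme that makes the active form of vitamin B12 in mitochondria. The libraries are replicates 1, 2 and 4 of each group, all from non-mutant mice, and each was made from whole liver, which holds several cell types. The comparison of the groups asked how hepatic transcripts respond when Mmab is reduced. In such bulk samples, fewer cells of a type and less RNA per cell cannot be told apart, and p-values measure only the spread among 3 livers in each group.

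Replication-dependent histone genes lie in clusters and are transcribed mainly in S phase, when new DNA has to be packed into nucleosomes. Most of their mRNAs end in a conserved stem-loop in place of a poly(A) tail, and the stem-loop binding protein SLBP guides their processing, translation and decay. Depleting ribosomal RNA, unlike selecting poly(A) tails, keeps RNAs of this kind in the library. Variant histone genes lie outside the clusters, carry poly(A) signals and are expressed in resting cells as well, and in differentiated tissue some replication-dependent genes also give polyadenylated mRNA.

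The stem-loop is shown here because it separates the classes by sequence. It was searched as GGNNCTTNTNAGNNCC, on the sense strand only, in the longest protein-coding transcript of each gene in GENCODE M21. It was found in 33 of 39 replication-dependent and in 1 of 10 variant histone genes, and in 94 of 21828 other genes (0.431%). Annotated histone genes without values here, such as Hist1h4f, were not taken out of these other genes. The share is therefore not one of genes other than histones. In the following sequences the capitals mark the 16 bases that match, with 5 bases to each side, written as DNA from 5′ to 3′.
Hist1h1c: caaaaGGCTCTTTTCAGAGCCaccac
Hist2h2aa1: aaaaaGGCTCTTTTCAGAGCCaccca
Hist2h2ac: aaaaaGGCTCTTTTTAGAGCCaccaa
Hist2h4: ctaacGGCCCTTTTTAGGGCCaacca
Hist4h4: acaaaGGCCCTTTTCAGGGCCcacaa
H2afx: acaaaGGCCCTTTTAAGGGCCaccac

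The stem of Hist1h1c and Hist2h2aa1 was the most frequent one, with the same 16 bases in 16 genes of the H1, H2A, H2B and H3 types. The stem shown for Hist4h4 was shared by 6 genes, all of them encoding H4. H2afx was the only variant histone gene with the motif, and 822 bases of its annotated transcript followed it. The replication-dependent genes without the motif were Hist1h1b, Hist1h2bc, Hist1h2bq, Hist1h2br, Hist1h4k and Hist2h2be. Further transcripts were annotated only for Hist1h2bq and Hist1h2br, and none of those held it. The other genes had 1 annotated transcript each, which for Hist1h4k was only 312 bases long. In 12 of the 33 replication-dependent genes with the motif the transcript ended within 60 bases of the stem-loop, and in the other 21 the annotated transcript ran on further, by 840 bases in Hist1h1c and 2445 in Hist4h4. A match gives the letters of the annotated transcript and does not show where the mRNA ended in these livers.

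Of the replication-dependent genes, 31 lie on chromosome 13, 6 on chromosome 3 and 1 each on chromosomes 6 and 11 of the mouse genome. The variant genes are spread over 8 chromosomes. Most histone genes were low in these livers. Levels are read counts scaled to the library total (CPM), taken back from the deposited log2 values. Averaged over the 6 libraries, 14 histone genes reached 1 CPM, 6 replication-dependent and 8 variant. Another 12 lay between 0.2 and 1 CPM, and 23 lay under 0.2 CPM, all of them replication-dependent.

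Levels of different genes are compared per kilobase of the longest annotated transcript. On that scale Hist1h2bc, an H2B gene, led with a mean of 55.7 CPM per kb over the 6 libraries. H1f0, the gene of the linker histone H1.0 of differentiated cells, followed at 54.0, Hist1h1c, the gene of the linker histone H1.2, at 51.0, H3f3b at 39.1 and Hist2h2aa1 at 32.9 CPM per kb. The most abundant histone mRNAs thus came from both classes, while the medians of the classes lay far apart, at 0.137 CPM per kb over 39 replication-dependent and 8.83 over 10 variant genes. The lowest replication-dependent gene on this scale was Hist1h1d at 0.0215 CPM per kb, with the longest annotated transcript of its class, 7425 bases. By CPM alone Hist1h2ao was the lowest, at a mean of 0.0190 against 0.160 CPM for Hist1h1d. Of the 6 replication-dependent genes without the stem-loop, Hist1h2bc had the highest level per kb of all 49 genes. Hist2h2be stood at 1.13 CPM per kb, and the remaining 4 lay between 0.0325 and 0.166.

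**Figure D1:**
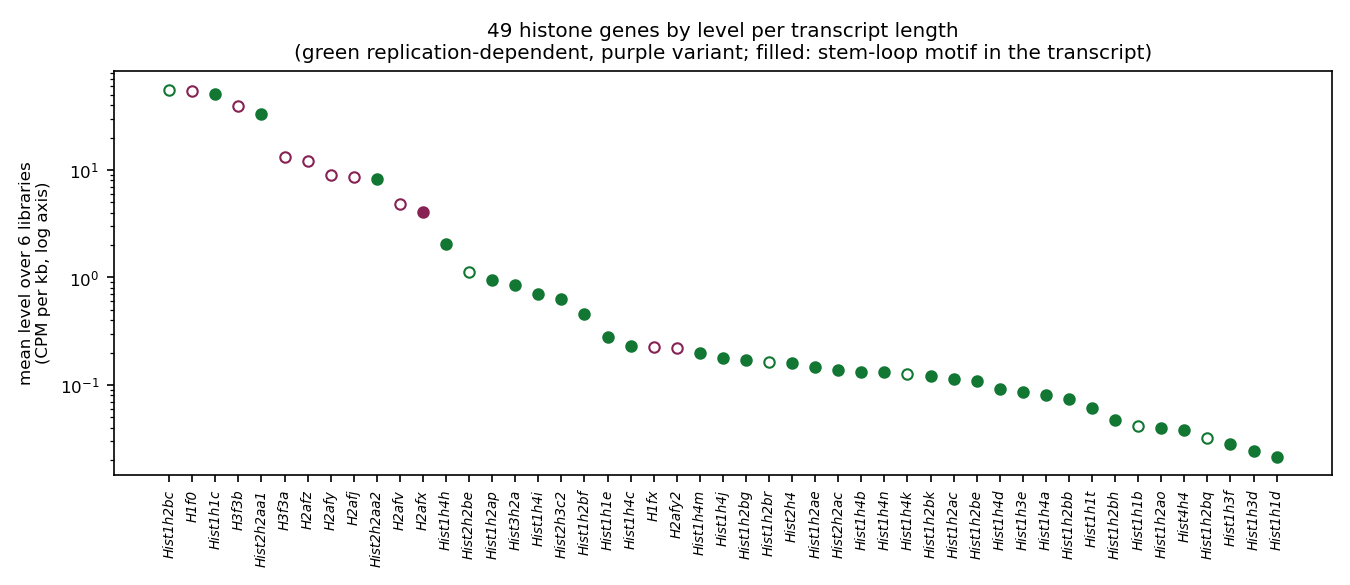
The 49 histone genes are ordered by their mean level over 6 libraries, in CPM per kb of transcript on a log axis. Green points are replication-dependent and purple points variant genes, and filled points have the stem-loop motif. Hist1h2bc at 55.7 and H1f0 at 54.0 CPM per kb stand at the top, and most of the lower right is replication-dependent.

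Many histone genes are near copies of each other, and the estimation of transcript abundance had to divide reads among them. The share of 100-base windows of a transcript that also occur in a transcript of another gene had a median of 30.7% over replication-dependent genes and of 0% over variant genes. It was at least 50% in 11 replication-dependent genes and in 0 variant genes. It was 100% for Hist2h2aa2, 88.3% for Hist2h2aa1, 61.6% for Hist2h3c2, 38.5% for Hist1h4h, 29.8% for Hist3h2a, 25.4% for Hist1h2bc and 5.07% for Hist1h1c. For H2afj and Hist2h2be it was 0%, and with windows of 45 bases, the shorter of the read lengths given for these libraries, 3.64% and 0.116%, so that the values of these genes rest on sequence of their own, whereas the split within the other groups of copies is uncertain.

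Depth and composition bear on the lowest genes. From the steps between low values, 1 read was worth 0.0181 to 0.0224 CPM, which corresponds to an estimated 44.7 to 55.4 M reads a library. The limit that a count of 0 allows, 3 reads, was then 0.0542 to 0.0671 CPM, for counting error only. CON ASO replicate 1 stood apart in composition, with 25994 CPM for the ribosomal RNA gene CT010467.1 against 81353 to 112456 CPM in the other 5 livers. Mmab, the targeted gene, was at 6.31, 5.30 and 6.83 CPM in the CON ASO livers and at 1.87, 2.69 and 1.80 CPM in the MMAB ASO livers, by replicates 1, 2 and 4. Of 12 hepatocyte markers all were above 1 CPM, with a sum of 68592 to 79489 CPM in CON ASO and 60473 to 75195 CPM in MMAB ASO livers.

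In the comparison of the groups, 2 histone genes were higher in MMAB ASO livers, H2afj and Hist2h2be, and 0 were lower, of the 14 that reached 1 CPM, at an adjusted p under 0.05 from limma. Among all 11565 genes tested, 1.87% were higher and 2.22% lower by the same rule. At an unadjusted p under 0.05, 4 of the 14 passed (H2afj, Hist2h2be, H3f3b and Hist3h2a), against 17.8% of all genes. The median log2 fold change was 0.38 over the 6 replication-dependent genes, 0.03 over the 8 variant genes and 0.03 over all genes tested. In a second fit, added after the data had been seen, genes were kept from a mean of 0.2 CPM with a pseudocount of 0.1, which left 26 histone genes. The same 2 passed there, with 1.67% of 15529 genes higher and 1.76% lower.

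**Figure D2:**
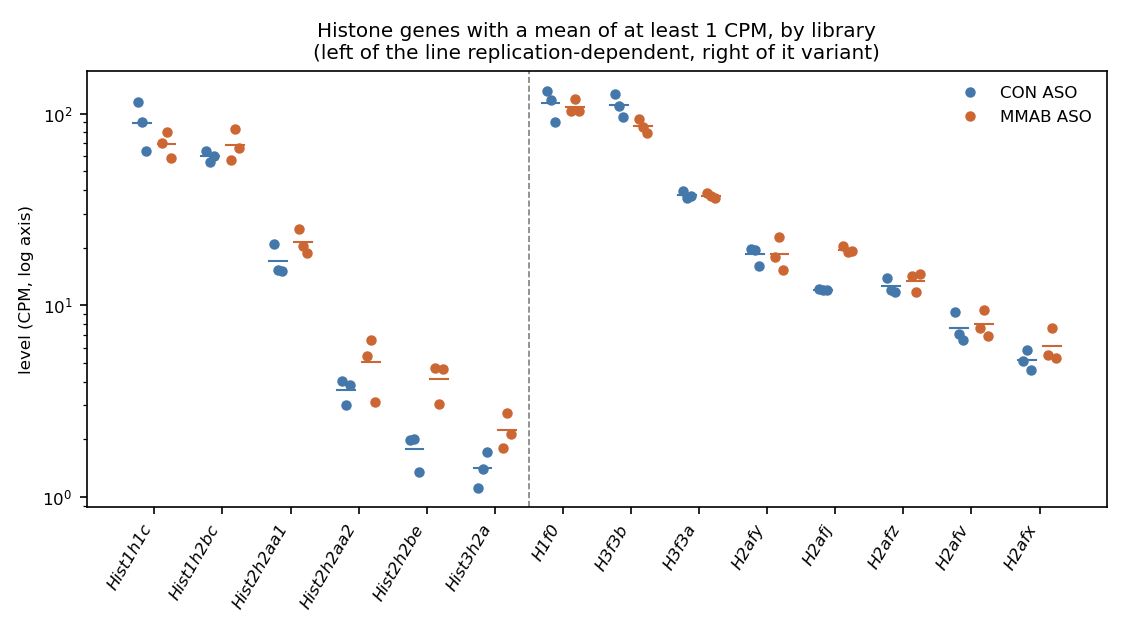
Levels of the 14 histone genes that reached 1 CPM, in CPM on a log axis. Each point is 1 liver, in the order of replicates 1, 2 and 4, blue for CON ASO and orange for MMAB ASO, and bars are means. The points of H2afj and Hist2h2be do not overlap between the groups, with means of 12.0 against 19.5 and 1.78 against 4.15 CPM.

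H2afj encodes H2A.J, a variant of H2A found in mammals that accumulates in senescent human fibroblasts. On GRCm38 the gene spans chromosome 6 from 136808244 to 136810074, plus strand. In replicates 1, 2 and 4 it was at 12.2, 12.0 and 12.0 CPM with CON ASO and at 20.3, 18.9 and 19.1 CPM with MMAB ASO. All MMAB ASO livers were above all CON ASO livers, and within each group the values were close together. The means were 12.0 ± 0.121 and 19.5 ± 0.742 CPM (SD, n = 3 each), which gave a log2 fold change of 0.69 (standard error 0.12, 95% interval 0.43 to 0.96), a fold of 1.62, and an adjusted p of 0.0100 by limma. When libraries were left out singly, H2afj still passed in all 6 limma fits (adjusted p 0.0177 to 0.0491). The exact permutation test, two-sided, gave p = 0.1, below which 3 livers against 3 cannot go.

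The promoter of H2afj is shown by the places where it holds CCAAT, a motif of many histone promoters. In the RefSeq window on GRCm38 from 250 bases before to 50 bases after the start site, CCAAT was found on either strand at 3 places. The capitals mark the match, which starts at base -144, -78 or -33 counted from the start site, and ATTGG is CCAAT on the other strand.
H2afj chr6:136808094-136808118: atcctggcagCCAATcccaacaagt
H2afj chr6:136808160-136808184: tgagcttttgATTGGgagacatctg
H2afj chr6:136808205-136808229: ccgcgagctgATTGGgtacggtacc

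RefSeq windows were matched for 44 of the 49 histone genes, and Hist2h2be was not among them. CCAAT occurred in 27 of the 35 replication-dependent and in 6 of the 9 variant genes matched, against 37.4% of all 32851 windows. TATAAA, searched on both strands, occurred in 19 of the 35 replication-dependent and in 1 of the 9 variant genes, the latter being H3f3b, against 13.6% of all windows. H2afj had no TATAAA match. These matches describe letters in a window and not sites in use.

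The neighbour of H2afj on the minus strand is Hist4h4, an H4 gene at 136801553 to 136804415. It was at 0.0658, 0.108 and 0.0589 CPM in CON ASO and at 0.122, 0.130 and 0.179 CPM in MMAB ASO replicates 1, 2 and 4. The groups did not overlap for Hist4h4 either, but its values were those of a few reads a library, and it was too low to be tested.

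Hist2h2be encodes an H2B protein, known in mouse from olfactory neurons, and is listed among the replication-dependent genes although its transcript had no stem-loop match. It lies on chromosome 3 from 96221119 to 96223738 on the plus strand. Hist2h2be was at 1.97, 2.01 and 1.35 CPM in CON ASO and at 4.73, 3.05 and 4.65 CPM in MMAB ASO replicates 1, 2 and 4. Every MMAB ASO liver was above every CON ASO liver, with replicate 2 the lowest of its group. The means were 1.78 ± 0.367 and 4.15 ± 0.946 CPM (SD, n = 3 each), with a log2 fold change of 1.22 (standard error 0.24, 95% interval 0.69 to 1.74) and a limma adjusted p of 0.0170. The call was lost without CON ASO replicate 4 (log2 fold change 1.03, adjusted p = 0.0784 from limma), without MMAB ASO replicate 1 (1.11, adjusted p = 0.0508) and without MMAB ASO replicate 4 (1.12, adjusted p = 0.0845).

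Hist2h2be starts 239 bases from Hist2h2ac, an H2A gene on the opposite strand that carries the stem-loop. Hist2h2ac had a mean of 0.0712 CPM against 2.96 CPM for Hist2h2be, or 0.137 against 1.13 CPM per kb. It was at 0.0882, 0.0929 and 0.121 CPM in CON ASO and at 0, 0.0352 and 0.0902 CPM in MMAB ASO replicates 1, 2 and 4, where the 0 allows a level of up to 0.0609 CPM. The log2 ratio of the group means was thus -1.27 for Hist2h2ac and 1.22 for Hist2h2be, the former resting on about 21 reads over 6 libraries and not tested. Hist1h2ac and Hist1h2bc, another H2A and H2B pair, start 251 bases apart, with means of 0.282 and 64.4 CPM.

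Many markers of several non-parenchymal liver cells moved with these genes. Of 12 sinusoidal endothelial markers, 9 were higher in MMAB ASO livers, and their sum was 51.5 to 75.8 CPM in CON ASO and 114 to 130 CPM in MMAB ASO livers. Of 12 stellate cell and fibroblast markers, 6 were higher, with sums of 95.7 to 127 and 161 to 192 CPM. Of 12 Kupffer cell and macrophage markers, 11 were tested and 2 were higher, with sums of 33.6 to 119 and 76.2 to 127 CPM. These overlapped at CON ASO replicate 1 alone, at 119 CPM against 35.3 and 33.6 CPM in the other CON ASO livers, and without it the ratio of the means moved from 1.60 to 2.91. Marco of this list went the other way with no overlap, at 15.7, 0.813 and 0.805 against 0.426, 0.134 and 0.380 CPM in replicates 1, 2 and 4. Its log2 fold change was -2.96 (adjusted p = 0.108 from limma). Of 7 erythroid markers, 5 were tested and 2 were higher, with sums of 234 to 298 and 322 to 467 CPM that were mostly globin mRNA. Alas2 went the other way with no overlap, at 26.5, 27.1 and 31.7 against 22.6, 19.4 and 20.4 CPM in replicates 1, 2 and 4. Its log2 fold change was -0.45 (adjusted p = 0.0802 from limma). Of 7 cholangiocyte markers 1 of the 3 tested was higher and 2 had negative log2 fold changes, with sums of 22.1 to 34.1 and 30.8 to 41.7 CPM that overlapped. The 12 lymphocyte markers, none of which reached 1 CPM, summed to 1.70 to 2.37 and 1.43 to 2.35 CPM, and 5 neutrophil markers to 0.235 to 0.556 and 0.230 to 0.467 CPM, both with overlap. No marker of these lists was at 0 in all 6 libraries. The part of these cells in the values of H2afj and Hist2h2be was not tested.

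Among the other replication-dependent genes above 1 CPM, none passed. Hist1h1c, on chromosome 13 from 23738808 to 23740367, was at 115, 90.0 and 63.5 CPM in CON ASO and at 70.3, 79.9 and 59.0 CPM in MMAB ASO replicates 1, 2 and 4. Its values overlapped, with CON ASO replicate 1 the highest of the 6 livers and a log2 fold change of -0.33 (95% interval -0.75 to 0.09, adjusted p = 0.420 from limma). It was -0.13 without CON ASO replicate 1, -0.21 without MMAB ASO replicate 4 and -0.55 without CON ASO replicate 4, and passed in none of these fits. Hist1h2bc, on chromosome 13 from 23684199 to 23692908, was at 63.8, 55.7 and 60.3 against 57.0, 83.3 and 66.1 CPM. Its values overlapped too, with MMAB ASO replicate 2 the highest, and its log2 fold change was 0.18 (95% interval -0.14 to 0.50, adjusted p = 0.572 from limma).

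Hist2h2aa1 and Hist2h2aa2 are near-identical H2A genes on chromosome 3, and reads from the sequence they share could not be told apart. Hist2h2aa1 was at 20.9, 15.3 and 15.1 CPM in CON ASO and at 25.1, 20.5 and 18.8 CPM in MMAB ASO replicates 1, 2 and 4. Hist2h2aa2 was at 4.04, 3.01 and 3.83 against 5.47, 6.57 and 3.14 CPM. Both overlapped between the groups, with log2 fold changes of 0.33 (adjusted p = 0.315) and 0.43 (adjusted p = 0.423) from limma. Hist2h2aa1 also overlaps Gm20634 on the same strand, at a mean of 6.57 CPM, and its values are uncertain for that reason as well. Hist3h2a, an H2A gene outside the main clusters on chromosome 11, was at 1.12, 1.41 and 1.71 against 1.80, 2.75 and 2.13 CPM. The groups did not overlap for Hist3h2a, but its log2 fold change of 0.66 (95% interval 0.10 to 1.21) missed the threshold (adjusted p = 0.199 from limma), and it overlaps Trim17 on the same strand.

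H3f3a and H3f3b encode the same protein, H3.3, the variant H3 that is deposited outside replication. H3f3b, on chromosome 11 from 116021912 to 116027962, was at 126, 110 and 96.3 CPM in CON ASO and at 93.3, 85.4 and 78.7 CPM in MMAB ASO replicates 1, 2 and 4. All MMAB ASO livers were below all CON ASO livers for H3f3b, with 96.3 CPM the lowest CON ASO and 93.3 CPM the highest MMAB ASO value. On the log2 scale the difference was -0.36 (standard error 0.13, 95% interval -0.66 to -0.07, fold 0.777), which missed the threshold at an adjusted limma p of 0.176. Under median-ratio scaling it passed, at -0.43 and an adjusted limma p of 0.0400. H3f3a, on chromosome 1 from 180800832 to 180813943, was at 39.3, 36.3 and 37.0 against 38.5, 37.1 and 36.3 CPM. Its values lay within a narrow range in both groups, with a log2 fold change of -0.01 (95% interval -0.26 to 0.24), and its direction turned under protein-coding sum scaling and quantile normalization. The ratio of H3f3b to H3f3a within each liver was 3.21, 3.03 and 2.61 in CON ASO and 2.42, 2.30 and 2.17 in MMAB ASO replicates 1, 2 and 4. Scaling does not touch this ratio, and the groups did not overlap in it, with MMAB ASO the lower.

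Of the remaining variant genes none passed, and their intervals all included 0. H1f0 was at 131, 118 and 90.3 CPM in CON ASO and at 103, 119 and 104 CPM in MMAB ASO replicates 1, 2 and 4, with a log2 fold change of -0.04 (95% interval -0.37 to 0.28). H2afy, the gene of macroH2A1, which is linked to silent chromatin, was at 19.7, 19.5 and 16.1 against 17.9, 22.8 and 15.2 CPM, with a log2 fold change of -0.0002 (95% interval -0.35 to 0.35). Both overlapped between the groups and their directions turned under protein-coding sum scaling and quantile normalization. H2afz and H2afv, the genes of the H2A.Z proteins found at promoters, had log2 fold changes of 0.10 (95% interval -0.21 to 0.41) and 0.06 (95% interval -0.32 to 0.45). For H2afz the values were 13.9, 12.0 and 11.8 against 14.2, 11.7 and 14.5 CPM, and those of H2afv overlapped as well. H2afx, the gene of H2A.X, which is phosphorylated at DNA double-strand breaks, was at 5.13, 5.84 and 4.61 against 5.50, 7.58 and 5.28 CPM. Its groups overlapped, with a log2 fold change of 0.22 (95% interval -0.17 to 0.62), and MMAB ASO replicate 2 held the highest value. H2afy2, the gene of macroH2A2, and H1fx, the gene of the linker histone H1X, lay under 1 CPM, with log2 fold changes in the second fit of -0.26 (95% interval -0.84 to 0.32) and -0.13 (95% interval -0.82 to 0.55).

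**Figure D3:**
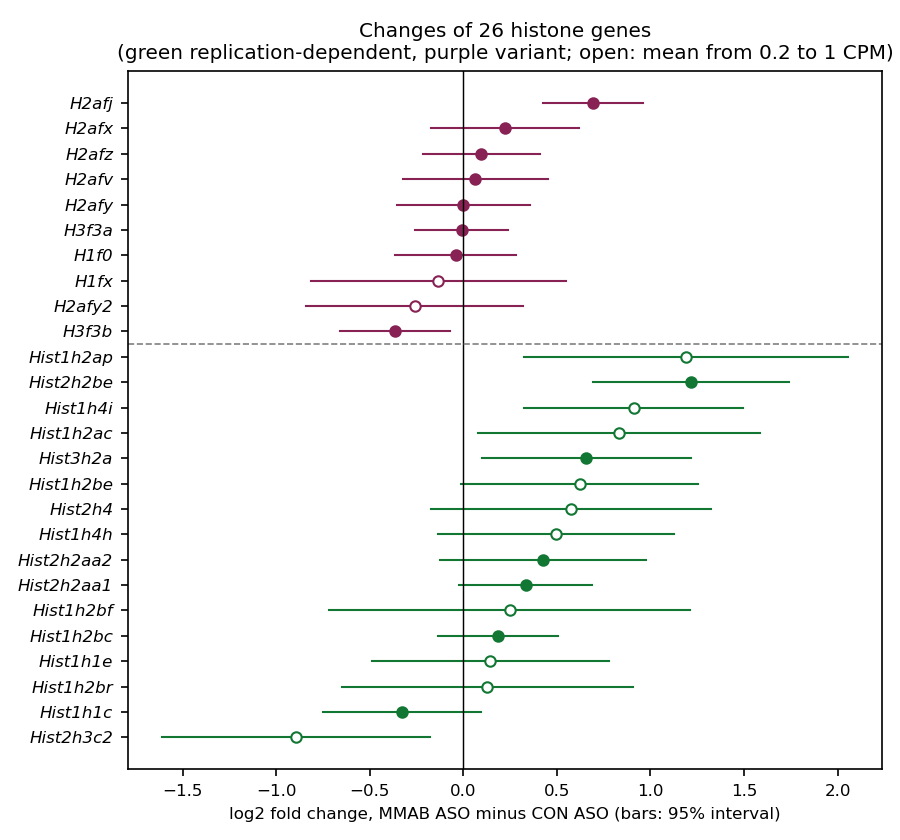
Log2 fold changes (MMAB ASO minus CON ASO) of 26 histone genes with 95% intervals, replication-dependent genes in green below the dashed line and variant genes in purple above it. Filled points are genes that reached 1 CPM, from the first fit, and open points those from 0.2 to 1 CPM in the second. H2afj at 0.69 and Hist2h2be at 1.22 are the genes that passed, and H3f3b at -0.36 is the lowest variant gene.

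Of the 33 replication-dependent genes under 1 CPM, 26 had a higher mean in MMAB ASO and 7 in CON ASO livers, where 63.4% of all 9732 genes under 1 CPM were also higher in MMAB ASO by this count. None of the 12 histone genes between 0.2 and 1 CPM passed singly. At an unadjusted p under 0.05 from limma, 4 of these 12 passed, against 17.8% of all genes in that fit. Of the 26 histone genes tested from 0.2 CPM, 8 had every MMAB ASO liver above every CON ASO liver (30.8%, against 15.0% of all genes in that fit), and 3 had every one below (11.5%, against 8.04%). The 8 were H2afj and 7 replication-dependent genes, and the 3 were H3f3b, H2afy2 and Hist2h3c2. Some of these margins were at the size of single reads. Hist2h4 was apart by less than 1 read, at 0.275 CPM in CON ASO replicate 4 and 0.282 in MMAB ASO replicate 2. Hist1h2ac was apart by about 1 read, at 0.205 and 0.225 CPM in replicate 4 of the groups. On the lower side H2afy2 was apart by less than 1 read, at 0.494 CPM in CON ASO replicate 2 and 0.478 in MMAB ASO replicate 1. Of the 16 replication-dependent genes in that fit 14 had a positive log2 fold change, against 58.4% of all genes. Many of the 16 lay under 1 CPM, where the lean of all genes was larger. From 0.2 to 1 CPM, 9 of 12 histone genes had the higher mean in MMAB ASO livers, against 66.1% of all 3964 genes. The median log2 fold change of the 16 was 0.46, against -0.005 over the 10 variant genes and 0.06 over all genes. These genes share reads and clusters, so that their number is not a number of independent measurements.

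Hist1h4i, an H4 gene on chromosome 13, was at 0.311, 0.320 and 0.334 CPM in CON ASO and at 0.776, 0.734 and 0.581 CPM in MMAB ASO replicates 1, 2 and 4. The MMAB ASO livers were all above the CON ASO livers, with a log2 fold change of 0.91 in the second fit (standard error 0.27, limma adjusted p 0.0895) and about 147 reads over the 6 libraries. Hist1h4h, the H4 gene with the highest level, was at 0.891, 0.470 and 1.03 against 1.27, 0.982 and 1.11 CPM, which overlapped. Its log2 fold change was 0.50 (adjusted p = 0.409 from limma). Hist1h2ap, an H2A gene with 92.2% of its 100-base windows shared, had the highest log2 fold change of the 26 histone genes in the second fit, at 0.373, 0.0649 and 0.347 against 0.807, 0.642 and 0.513 CPM, with no overlap. Its log2 fold change was 1.19 (95% interval 0.32 to 2.05, limma adjusted p 0.134). Hist2h3c2, an H3 gene of the cluster on chromosome 3, went the other way, at 0.467, 1.20 and 0.962 against 0.399, 0.463 and 0.335 CPM. Its groups did not overlap, by a margin of less than 1 read between CON ASO replicate 1 and MMAB ASO replicate 2, with a limma log2 fold change of -0.89 in the second fit (standard error 0.33, adjusted p 0.175).

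The 23 genes under 0.2 CPM had 5.94 to 55.2 reads each over the 6 libraries, and 13 of them were at 0 in at least 1 library. Of the 23, 17 had a higher mean in MMAB ASO and 6 in CON ASO livers, against 61.5% higher in MMAB ASO among all 5768 genes under 0.2 CPM. They include Hist1h1t, the testis-specific H1 gene, at 0.0219 to 0.108 CPM in CON ASO and 0.0224 to 0.0650 CPM in MMAB ASO livers. The sum of the 23 was 0.936, 1.36 and 1.57 CPM in CON ASO and 2.12, 2.42 and 1.90 CPM in MMAB ASO replicates 1, 2 and 4. The sums did not overlap, but no single gene of this group could be tested.

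Sums over genes are less affected by how reads were divided among the copies they cover. Annotated copies without values here, such as Hist1h4f and Hist1h3a, share sequence with these genes and lie outside the sums. The 12 H4 genes summed to 1.77, 1.55 and 2.35 CPM in CON ASO and to 3.31, 3.31 and 2.99 CPM in MMAB ASO replicates 1, 2 and 4. Each MMAB ASO liver was above each CON ASO liver, at a ratio of the means of 1.70, and 11 of the 12 genes had the higher mean in MMAB ASO, against 63.4% of all genes under 1 CPM. The 33 replication-dependent genes under 1 CPM summed to 4.45, 5.01 and 5.53 against 7.29, 7.77 and 6.33 CPM, a ratio of 1.43. Without CON ASO replicate 1, a choice made after seeing the data, these ratios were 1.64 and 1.35. By contrast the sum of the 4 replication-dependent H3 genes, 0.575, 1.22 and 1.08 against 0.602, 0.644 and 0.536 CPM, overlapped, and 3 of these 4 genes had the higher mean in MMAB ASO. Without CON ASO replicate 1 the H3 sums did not overlap, with MMAB ASO the lower at a ratio of 0.516, and Hist2h3c2 made up most of the sum. The replication-dependent H2A, H2B and H1 sums overlapped with all libraries, at ratios of 1.32, 1.19 and 0.784. Without CON ASO replicate 1 the H2A and H2B sums did not overlap, with MMAB ASO the higher at 1.44 and 1.23. The H1 sums still overlapped then, at 0.911. The endothelial, stellate and erythroid marker sums moved in the same direction as the H4 sum, with no overlap. The ratios were 1.63 for the stellate and 1.47 for the erythroid list, though Alas2 of the latter went the other way. The part of these cells in the histone sums was not tested.

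Over all 39 replication-dependent genes these differences were not visible. The sum was 211, 172 and 151 CPM in CON ASO and 172, 204 and 160 CPM in MMAB ASO replicates 1, 2 and 4. The means were 178 ± 30.2 and 179 ± 22.7 CPM (SD, n = 3 each), and the groups overlapped. Hist1h1c and Hist1h2bc made up 81.8% to 84.6% of this sum in CON ASO and 74.2% to 80.1% in MMAB ASO livers. The other 37 genes, a division chosen after the values were seen, summed to 32.4, 26.7 and 27.5 against 44.4, 40.6 and 35.0 CPM, a ratio of 1.38 with no overlap. Most of that sum was Hist2h2aa1, and the endothelial, stellate and erythroid marker sums moved in the same direction.

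The 10 variant genes summed to 358, 321 and 276 CPM in CON ASO and to 301, 313 and 280 CPM in MMAB ASO replicates 1, 2 and 4, which overlapped. Within them the 6 H2A variants, H2afj among them, did not overlap, at 60.8, 56.9 and 51.5 against 65.9, 70.9 and 61.4 CPM, a ratio of 1.17. The other 5 without H2afj summed to 48.6, 45.0 and 39.6 against 45.6, 51.9 and 42.3 CPM and overlapped. The H3 variants did not overlap in the opposite direction, at 166, 146 and 133 against 132, 122 and 115 CPM, a ratio of 0.829. Replication-dependent genes made up 34.9% to 37.1% of all histone CPM in CON ASO and 36.3% to 39.4% in MMAB ASO livers, so that the shares overlapped. No test was run on any sum.

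**Figure D4:**
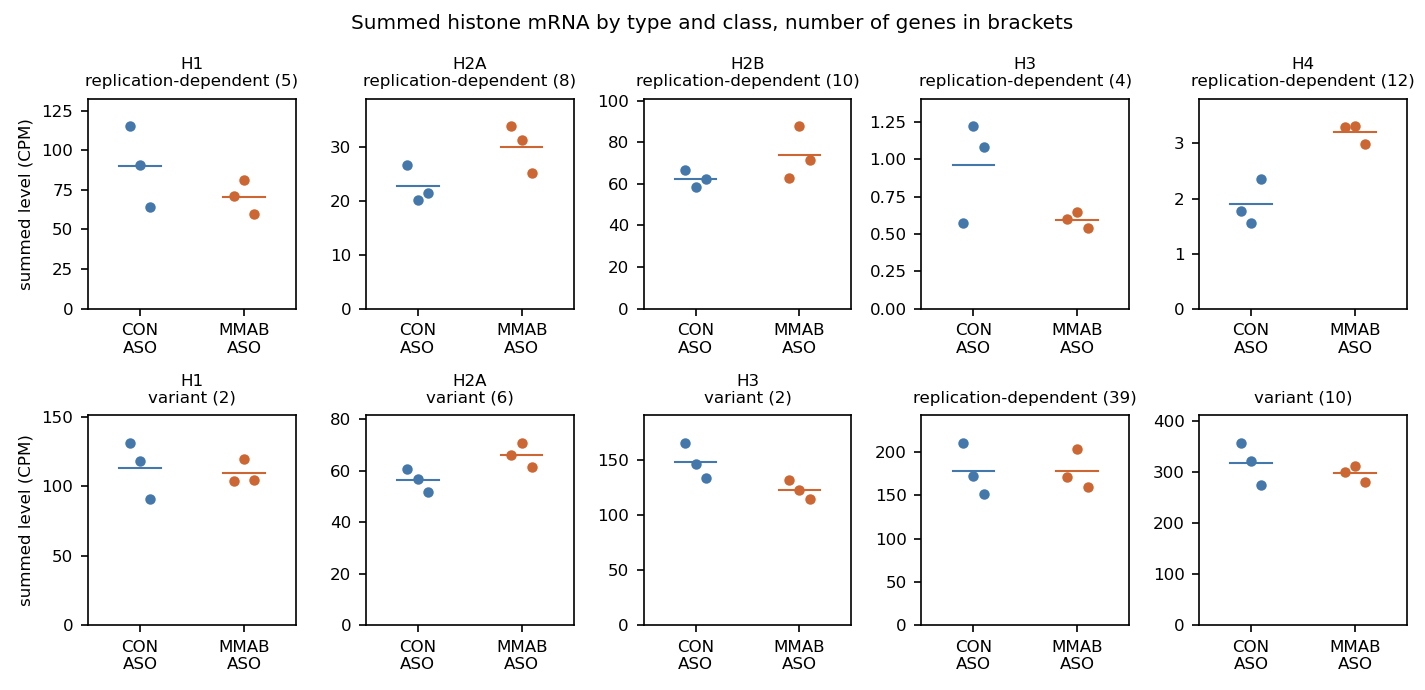
Summed levels of histone genes in CPM by type and class, each panel with its own axis from 0 and the number of genes in brackets. Points are livers in the order of replicates 1, 2 and 4, and bars are means. The H4 panel, at 1.55 to 2.35 against 2.99 to 3.31 CPM, and the panels of H2A and H3 variants show groups that do not overlap.

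Genes that make, process and place histone mRNAs and proteins were compared as lists. Of 20 genes of histone mRNA transcription and 3′ processing, 19 were tested and 0 passed in either direction at an adjusted p under 0.05 from limma (1 at an unadjusted p under 0.05), with a median log2 fold change of 0.08. Slbp, whose protein binds the stem-loop, was at 4.29, 3.54 and 3.37 CPM in CON ASO and at 4.78, 5.49 and 3.74 CPM in MMAB ASO replicates 1, 2 and 4, which overlapped (log2 fold change 0.31, adjusted p = 0.440 from limma). Npat, the activator of clustered histone genes, was at 6.39, 4.55 and 3.81 against 4.14, 3.92 and 4.47 CPM and overlapped too (-0.20, adjusted p = 0.664).

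Of 15 genes of histone mRNA decay, 14 were tested and 0 passed with limma (1 at an unadjusted p under 0.05), with a median log2 fold change of -0.05. Of 26 histone chaperone and exchange genes, 23 were tested and 0 passed (0 at an unadjusted p under 0.05). Of 36 S phase and cell division genes, only 12 reached 1 CPM, and 0 were higher and 1 lower. That gene was Gins2, a subunit of the replicative helicase, at 1.88, 2.47 and 2.67 against 1.09, 1.10 and 1.37 CPM, with a log2 fold change of -0.97 (adjusted p = 0.0452 from limma). The sum over the 36 genes was 84.4 to 97.4 CPM in CON ASO and 79.9 to 88.8 CPM in MMAB ASO livers and overlapped. Of 8 other RNAs that exist, at least in part, without a poly(A) tail, 5 reached 1 CPM and 0 of them passed (0 at an unadjusted p under 0.05). Their sum of 1175 to 1641 against 1312 to 1955 CPM overlapped and was mostly Malat1, a nuclear RNA with a mean of 1336 CPM. Rmrp, the RNA of RNase MRP, named here after its values were seen, lay lower, at 0, 0.201 and 0.00820 CPM in CON ASO and at 0.382, 0.351 and 0.382 CPM in MMAB ASO replicates 1, 2 and 4. Its groups did not overlap, and in the second fit it narrowly missed the threshold, with a log2 fold change of 1.67 on the scale with a pseudocount of 0.1 (95% interval 0.75 to 2.59, adjusted p = 0.0516 from limma).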

How the data were processed

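Liver RNA was depleted of ribosomal RNA with Ribo-Zero, and the authors aligned reads with STAR in PartekFlow to mm10 and quantified transcripts by the E/M method of Partek. Values were deposited as log2 of counts scaled by the authors to each library's total, with 0.0001 added. Whether counting used strand is not given in the sources used here, so overlapping and antisense genes cannot be told apart. Because only 58.5% to 59.9% of values up to 20 reads were whole within 0.01 of a read, no count test was run.

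Genes averaging 1 CPM or more were compared on the deposited log2 scale in R 4.3.3 by limma 3.58.1, with a trended variance, no covariate and Benjamini-Hochberg adjustment over all genes tested, at 0.05. The fit was tested on simulated data. Alternatives were other pseudocounts, filters, scalings, no trend, a replicate block and leaving out each library. Coordinates are those of GENCODE M21 (GRCm38), which matched the table for 48 of 49 histone genes, H1f0 being the other. Tables used Python 3.11.15 and pandas 2.3.3.

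Described in full were genes with an adjusted p under 0.05, the 8 replication-dependent and 6 variant genes of highest mean, and the 4 and 3 with the largest change. Outside that rule, values by library were also given for Hist4h4 and Hist2h2ac, as neighbours of H2afj and Hist2h2be. Hist1h4i and Hist1h2ap were outside it too and were named with their values known. The genes and lists were chosen with earlier results of these data known.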

Additional observations from a re-analysis of the deposited data

How the results depend on the processing

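The number of histone genes called higher was 1 with a filter at 5 CPM, which left Hist2h2be out, and 1 to 2 when libraries were left out in turn, and for replication-dependent genes 0 at that filter and 0 to 1. Under median-ratio scaling H3f3b was called, which made 1 gene lower and 2 variant genes called. The median log2 fold change of replication-dependent genes, 0.38, was 0.90 with no filter and 0.18 with a filter at 5 CPM. Without Hist1h1c, the gene with the highest mean, the log2 ratio of the replication-dependent sums was 0.29 and the difference in their share of histone CPM 4.75 points. Changes near 0 turned direction: H1f0 was at 0.037 under quantile normalization, 0.047 under protein-coding sum scaling and -0.195 to 0.073 without single libraries, H2afy at 0.00046 with a pseudocount of 1, 0.0036, 0.089 and -0.155 to 0.135, and H3f3a at 0.048, 0.080 and -0.033 to 0.025. The cause of these changes was not tested. Protein-coding sum scaling moved the median of all genes from 0.03 to 0.12. The fit from 0.2 CPM and the sums without CON ASO replicate 1 were chosen after seeing the data.

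Replicate numbers did not pair the samples, with correlations of same-numbered deviations of -0.0196, 0.0505 and -0.00549. With the replicate block 2 histone genes were called higher and 0 lower, and 430 genes of all in place of 473. Genes under 0.2 CPM were too low in reads for a test.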

Other observations

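The 5 rows whose symbol matches the histone pattern but whose biotype is not protein-coding were left out of the comparison. H3f3c, a processed pseudogene, was at 5.43, 4.72 and 4.83 CPM in CON ASO and at 5.55, 5.12 and 4.46 CPM in MMAB ASO replicates 1, 2 and 4. H3f3a-ps2, another processed pseudogene, was at 4.93, 4.49 and 4.59 against 4.70, 5.43 and 4.15 CPM. Both overlapped between the groups, with log2 fold changes of 0.01 and 0.02 and adjusted p-values from limma of 0.983 and 0.971. They share sequence with H3f3a, and how their reads divide between gene and pseudogene depends on the estimation of abundance. The antisense RNA H3f3aos was at 0.137 to 0.632 CPM in CON ASO and 0.122 to 0.559 CPM in MMAB ASO livers.

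The ratio of Hist1h1c to Hist1h2bc, the most abundant replication-dependent genes, was 1.80, 1.62 and 1.05 in CON ASO and 1.23, 0.959 and 0.893 in MMAB ASO replicates 1, 2 and 4. The groups overlapped at CON ASO replicate 4.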
